A study of Mus musculus with 5 samples.

Results

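Connecting tubule cells line the short segment of the kidney tubule between the distal convoluted tubule and the collecting duct. They were picked out here by measured RNA: among barcodes with at least 200 detected genes, those in which Klk1, S100g and Calb1 together made up at least 5% of the unique molecular identifiers (UMIs, each marking 1 captured mRNA molecule) and at least 10 UMIs, with Slc12a3 and Pvalb together under 3 UMIs. Of 12121 cells in all, 415 met this rule. The data are 5 Drop-seq libraries of kidneys from wild-type mice, strain given in the labels as C56BL/6N, with 1 library each of microdissected outer medulla, cortex and inner medulla and 2 of whole kidney. All were digested with a cold-active protease, fixed in methanol and stored frozen, no group was treated, and the labels give neither age nor the number of animals.

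The segment fine-tunes the calcium, sodium and potassium content of urine. Calcium enters its cells through apical channels, is carried across the cytoplasm by the calbindins that S100g and Calb1 encode, and leaves through the sodium-calcium exchanger encoded by Slc8a1 and through calcium pumps. Along the segment the machinery of aldosterone-driven sodium uptake appears, and its cells secrete tissue kallikrein, the protease encoded by Klk1 that frees kinins from kininogen. Intercalated cells, which handle acid and base, are interspersed among them.

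Cells per library numbered 2428 for outer medulla, 3072 for cortex and 898 for inner medulla, and the whole kidney libraries gave 2418 (whole kidney 1) and 3305 (whole kidney 2). Connecting tubule cells had median depths of 345 to 489 UMIs, against 441 to 517 UMIs in all other cells of the same libraries. Barcode sequences shared between libraries came to 6 over all pairs of libraries, and none was a connecting tubule cell (0). In single cells at this depth most genes have 0 or 1 UMI, so levels are given as UMIs summed over the cells of a library and scaled to 1000000 UMIs of that sum (CPM). Intervals in parentheses are exact 95% intervals that cover counting error only. No p-value is given between regions, since each is 1 library, or between connecting tubule cells and other cells, since measured genes chose them.

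Connecting tubule cells were scarcer in the outer medulla library than in the cortex library. They numbered 31 of 2428 cells in outer medulla, or 1.28% (0.869 to 1.81), against 144 of 3072 cells in cortex, or 4.69% (3.97 to 5.50). The whole kidney libraries, with 126 cells or 3.81% (3.19 to 4.52) in whole kidney 2 and 112 cells or 4.63% (3.83 to 5.55) in whole kidney 1, stood near cortex. Inner medulla had 2 such cells, 0.223% (0.0270 to 0.802), with 690 UMIs in all, and is not compared further. The segment lies in the cortex. Podocyte markers, genes of the cortical glomeruli, summed to 48.4 CPM in the other cells of outer medulla and 64.4 CPM in those of cortex, but to 36.7 CPM in whole kidney 1 and 21.3 CPM in whole kidney 2, and the amount of cortical tissue in the outer medulla library was not measured.

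**Figure D1:**
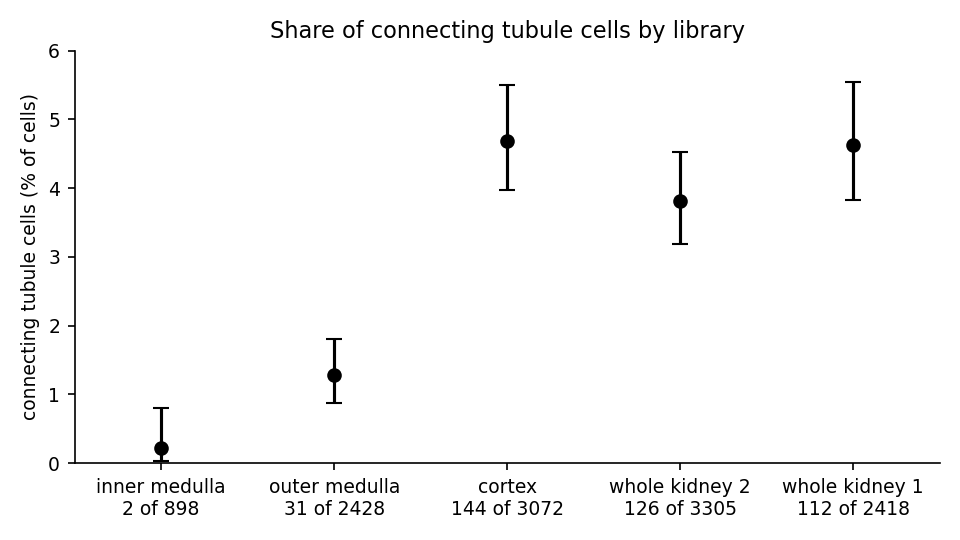
Share of cells that met the connecting tubule rule in each library (vertical axis, percent of cells with at least 200 detected genes; points with exact 95% intervals for counting error). The outer medulla point, 1.28%, lies below the intervals of cortex and of both whole kidney libraries.

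The values that chose the cells were high and uneven. The combined share of Klk1, S100g and Calb1 had a median of 14.4% of a cell's UMIs in outer medulla (5.04% to 28.0%) and 15.5% in cortex (5.24% to 35.8%), and medians of 12.3% in whole kidney 1 and 13.5% in whole kidney 2. Klk1 was detected in 395 of the 415 cells, S100g in 403 and Calb1 in 345, and 330 cells had all of them. Klk1 had the most UMIs of the genes in 260 cells, S100g in 147 and Calb1 in 3, with ties in the other 5. At the edge of the rule, 3 cells of outer medulla, 7 of cortex and 13 of each whole kidney library held 5% to 6%, while 2, 12, 17 and 14 cells of outer medulla, cortex, whole kidney 1 and whole kidney 2 held 4% to 5% and were left out. Another 16 cells in these 4 libraries met the share but carried 3 or more UMIs of the distal convoluted tubule genes Slc12a3 and Pvalb.

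Slc8a1, the exchanger gene, played no part in the choice and serves as a check of the label. It stood at 1983 CPM in connecting tubule cells of outer medulla, 1994 CPM in those of cortex, 1893 CPM in whole kidney 1 and 1829 CPM in whole kidney 2, against 13.3, 48.6, 50.2 and 45.1 CPM in all other cells of these libraries. The level in connecting tubule cells thus varied little between libraries and was 37.7-fold (28.3 to 50.4) to 150-fold (85.2 to 267) that of the other cells. At the depth of single cells, 207 of the 415 had a Slc8a1 UMI. With each cell thinned to 300 UMIs, the share with a Slc8a1 UMI was 27.6% in outer medulla (29 cells kept, 2 shallower cells left out), 34.1% in cortex (126 kept, 18 left out), 34.7% in whole kidney 1 (98 kept, 14 left out) and 36.0% in whole kidney 2 (111 kept, 15 left out). The unthinned shares lay between 48.2% and 51.4%. Proximal tubule cells, taken by a rule on 6 proximal tubule genes and of a segment that should lack the exchanger, had shares of 0% to 0.847% after the same thinning, at median depths of 525 to 555 UMIs against 415 to 489 UMIs.

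The promoters of Klk1, S100g and Slc8a1 are shown because the first pair led the choice of cells and Slc8a1 checked it. Each runs from 250 bases before the gene start to 50 after it, as annotated by RefSeq on build GRCm38.p6, and Calb1 has no entry in that table. Capitals mark AGGTCA, the half-site bound by vitamin D, estrogen and other nuclear receptors, read on either strand, and TATAAA, the TATA box, read on the gene's strand. The Klk1 window lies at chr7:44225110-44225409 on the plus strand, the S100g window at chrX:162964550-162964849 on the minus strand and the Slc8a1 window at chr17:81738338-81738637 on the minus strand.
Klk1: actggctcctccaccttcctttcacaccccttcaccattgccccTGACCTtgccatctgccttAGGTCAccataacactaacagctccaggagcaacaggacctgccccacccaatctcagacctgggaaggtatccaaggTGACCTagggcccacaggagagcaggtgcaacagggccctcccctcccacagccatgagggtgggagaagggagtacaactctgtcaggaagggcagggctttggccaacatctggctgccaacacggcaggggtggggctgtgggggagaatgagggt
S100g: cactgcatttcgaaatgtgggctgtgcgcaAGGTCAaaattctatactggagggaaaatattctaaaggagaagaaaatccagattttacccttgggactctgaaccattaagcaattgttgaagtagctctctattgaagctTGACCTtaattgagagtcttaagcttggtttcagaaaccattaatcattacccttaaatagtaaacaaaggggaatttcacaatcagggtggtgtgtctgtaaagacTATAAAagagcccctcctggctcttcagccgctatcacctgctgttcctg
Slc8a1: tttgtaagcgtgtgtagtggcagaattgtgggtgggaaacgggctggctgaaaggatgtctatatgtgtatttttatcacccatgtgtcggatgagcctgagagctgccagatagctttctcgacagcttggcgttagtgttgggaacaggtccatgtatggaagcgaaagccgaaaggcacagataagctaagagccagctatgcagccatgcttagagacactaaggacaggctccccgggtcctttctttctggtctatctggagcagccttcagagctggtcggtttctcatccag
The Klk1 window held 3 half-sites and the S100g window 2 half-sites and 1 TATA box, with no overlap between the motifs, while the Slc8a1 window held neither. Of 32851 mouse promoter windows of this length, 16.3% held at least 1 half-site, 1.79% held 2 or more and 13.6% held TATAAA. A match is a run of letters and does not show that a factor binds there.

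Set against all other cells, the 15 genes with the largest ratios in every library were Klk1b5, Slc8a1, Klk1b1, Clu, Klk1b3, Klk1b8, Klk1b4, Pgam2, Klk1b9, Klk1b21, Ptges, Rhbg, Wnk1, Tmem52b and Cav2. A gene was called higher where the log2 ratio of CPM plus 10 was at least 1 in each of the 4 larger libraries, which held for 116 of 996 genes with at least 100 CPM in the connecting tubule cells of every library (11.6%). It was called lower by the mirrored rule for 275 of 1528 genes with at least 100 CPM in the other cells (18%). Both counts describe cells that were chosen on measured RNA and are not counts of changed genes. With trimmed-mean (TMM) factors, which shifted the log2 ratios by -0.97 in outer medulla, -0.34 in cortex, -0.42 in whole kidney 1 and -0.43 in whole kidney 2, 62 genes were called higher and 422 lower. As a measure of RNA from another cell type, 15 proximal tubule marker genes took 0.925% of UMIs in connecting tubule cells of outer medulla, 1.06% in cortex, 1.84% in whole kidney 1 and 2.03% in whole kidney 2, and 8.53% to 9.50% in barcodes with under 100 genes. Whether it reached the cells as free RNA or in barcodes with more than 1 cell was not tested.

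Among genes of calcium transport, 4 of the 7 that could be called were higher. Over all genes that could be called, the share for this and the lists below was 11.6% (116 of 996). Vdr, the vitamin D receptor gene, stood at 1082 CPM in connecting tubule cells of outer medulla, 432 CPM in cortex, 268 CPM in whole kidney 1 and 440 CPM in whole kidney 2, against 74.3 to 125 CPM in other cells. Kl, which encodes klotho, a co-receptor for the phosphate hormone FGF23, stood at 1747 to 2644 CPM against 269 to 356 CPM. Calm2, a calmodulin gene, stood at 586 to 721 CPM against 218 to 315 CPM, and like Vdr it was not called with TMM factors. The apical calcium channel genes were hardly captured, with 5 UMIs of Trpv5 and 1 of Trpv6 in all 413 cells of the 4 libraries. The calcium pump gene Atp2b1 had 22 UMIs and Atp2b4 had 8. Pth1r, the parathyroid hormone receptor gene, differed little, at 570 to 811 CPM against 417 to 518 CPM.

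Of the listed genes of aldosterone-driven sodium uptake, the 4 with at least 100 CPM in connecting tubule cells of every library were higher, also with TMM factors. That limit favours genes high in these cells. Of the 9 listed genes with at least 20 CPM in either cell group, 4 were higher and 3 lower in all 4 libraries. Over all 6670 genes at that level, 951 were higher and 1420 lower in all 4 libraries. Cideb was called lower, and 2 listed genes were with TMM factors. Hsd11b2, whose enzyme keeps glucocorticoids off the mineralocorticoid receptor, stood at 2223 CPM in connecting tubule cells of outer medulla, 2082 CPM in cortex, 1743 CPM in whole kidney 1 and 1265 CPM in whole kidney 2. The other cells had 324, 153, 114 and 100.2 CPM, the outer medulla value being the highest. The epithelial sodium channel subunits Scnn1a, Scnn1b and Scnn1g had 180 to 299 CPM, 193 to 300.5 CPM and 180 to 261 CPM against 4.98 to 24.8 CPM. These rest on 56, 58 and 57 UMIs over the 4 libraries. Kcnj1, the potassium channel through which the segment secretes potassium, stood at 591 to 1156 CPM against 66.8 to 146 CPM, while no UMI (0) was seen of the large-conductance channel gene Kcnma1. Of the sodium pump genes, Atp1b1 stood at 6886 to 8173 CPM against 2714 to 3637 CPM and was called higher without TMM factors only, and Fxyd2 was at 7640 to 9493 CPM against 8000.4 to 8918 CPM.

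Kinase, transcription factor and acid-base genes of the distal nephron were also called. Wnk1, a kinase that governs salt transport, stood at 1322 to 1573 CPM against 89.4 to 151 CPM. The 5 segment transcription factors with at least 100 CPM in connecting tubule cells of every library, a limit that favours genes high in these cells, were called higher. They were Hoxd8 at 576 to 661 CPM, Emx1 at 277 to 436 CPM, Tfcp2l1 at 300.5 to 436 CPM, Tfap2b at 138 to 361 CPM and Gata3 at 101 to 199 CPM. Of 14 listed factors with at least 20 CPM in either cell group, 9 were higher in all 4 libraries, against 951 of all 6670 genes at that level. Gata3 and Tfcp2l1 were not called with TMM factors. The ammonia transporter genes Rhbg, at 321 to 421 CPM against 18.1 to 31.6 CPM, and Rhcg, at 352 to 481 CPM against 26.3 to 50.2 CPM, were called as well. By list, 3 of 5 magnesium and distal convoluted tubule genes were higher (Wnk1, Wnk4 and Stk39, of which Wnk1 alone with TMM factors), 2 of 3 potassium channel genes, 2 of 5 acid-base genes and 0 of 2 water channel genes, and the acid-base genes Slc4a4 and Car4 were lower. Of tight junction genes, Cldn8 and Cldn4, claudins of the distal tubule, were higher, and Cldn2 and Cldn10, claudins of leakier segments, were lower, with Cldn4 not called under TMM factors.

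Of the listed genes for secreted proteins and hormones, 6 of 6 that could be called were higher, and 5 with TMM factors. The same limit on level in connecting tubule cells chose these 6. Of 8 with at least 20 CPM in either cell group, 6 were higher in all 4 libraries, against 951 of all 6670 genes at that level. Clu, a secreted chaperone, stood at 4747 CPM in connecting tubule cells of outer medulla, 4818 CPM in cortex, 4222 CPM in whole kidney 1 and 4002 CPM in whole kidney 2, against 73.8 to 147 CPM in other cells. Spp1, osteopontin, stood at 5660 to 6911 CPM, Defb1, an epithelial defensin, at 5529 to 7138 CPM and Wfdc2 at 1262 to 2078 CPM. Kng2, a gene for kininogen, the substrate of kallikrein, was itself higher, at 1082, 1274, 1156 and 1114 CPM in outer medulla, cortex, whole kidney 1 and whole kidney 2 against 108 to 193 CPM. The remaining genes with the largest ratios in every library were Pgam2, a glycolytic enzyme gene of muscle, at 1513 to 1861 CPM, Tmem52b at 2513 to 3485 CPM, Cav2, a caveolin gene, at 553 to 781 CPM and Ptges, a prostaglandin E synthase gene, at 138 to 302 CPM.

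**Figure D2:**
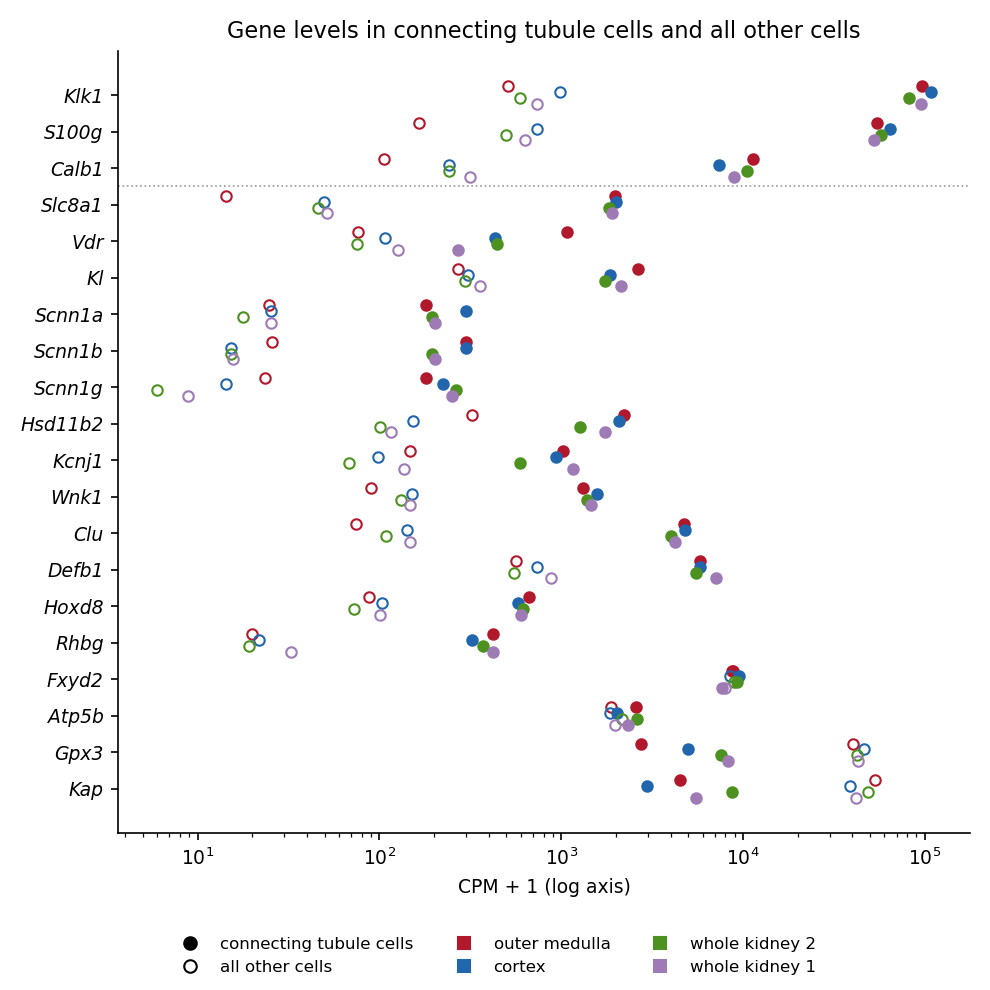
Summed levels (horizontal axis, CPM + 1, log scale) in connecting tubule cells (filled) and all other cells (open) of 4 libraries, coloured by library. Klk1, S100g and Calb1, above the dotted line, chose the cells; Slc8a1 to Rhbg lie to the right of the open points in every library, Fxyd2 and Atp5b overlap them, and the proximal tubule genes Gpx3 and Kap lie to their left.

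Genes of the proximal tubule were lower throughout, 15 of 15 markers, with a median log2 ratio of -3.00 against -0.13 over all 6670 genes measured. This direction follows from the make-up of the other cells, most of which were proximal tubule cells. Kap, an androgen-regulated proximal gene, still stood at 4507 CPM in connecting tubule cells of outer medulla, 2969 CPM in cortex, 5496 CPM in whole kidney 1 and 8733 CPM in whole kidney 2, against 38916 to 53563 CPM in other cells. The 8 genes with the lowest ratios in every library were Car4, Napsa, Aadac, Cyp2e1, Tmigd1, Cyp2d26, Slc22a12 and Cyba. Cyp2e1, a cytochrome P450 gene, had 117 to 275 CPM against 1642 to 2162 CPM, and Car4, a membrane carbonic anhydrase gene, 0 to 27.5 CPM against 265 to 346 CPM. Of 24 nuclear genes of oxidative phosphorylation, 23 could be called and 0 were, in either direction, with a median log2 ratio of 0.11 whose sign turns with the TMM shifts given above. Markers of podocytes summed to 0 CPM in connecting tubule cells of cortex and both whole kidney libraries and to 60.1 CPM (1 UMI) in outer medulla, and those of immune cells to 13.8 to 60.1 CPM.

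The neighbouring segments shared parts of this profile, and in some genes exceeded it. Distal convoluted tubule cells, taken by a rule on Slc12a3 and Pvalb (40 cells), and principal cells of the collecting duct, taken by a rule on Aqp2 and Fxyd4 (224 cells), were summed over the same 4 libraries. Slc8a1 stood at 1918 CPM in connecting tubule cells, 638 CPM in distal convoluted tubule cells and 112 CPM in principal cells. It was highest, at 5535 CPM (4244 to 7096), in the 16 cells that met the marker share but carried Slc12a3 or Pvalb. Wnk1, at 1471 CPM in connecting tubule cells and 3393 CPM in those 16 cells, Kl, at 1947 and 5357 CPM, and Clu, at 4417 and 8838 CPM, were likewise lower in connecting tubule cells. Wnk1 was level in connecting and distal convoluted tubule cells, at 1471 and 1447 CPM, and had 3 UMIs in principal cells. Hsd11b2 ran the other way, at 1759 CPM in connecting tubule cells and 6457 CPM in principal cells, and had 0 UMIs in distal convoluted tubule cells, where 3 UMIs would be 128 CPM. Kng2 stood at 1183 CPM in connecting tubule cells and 2042 CPM in distal convoluted tubule cells, Tmem52b at 2837 and 2978 CPM, and Cav2 at 614 CPM in connecting tubule cells and 1334 CPM in principal cells. Principal cells also stood above connecting tubule cells in Scnn1g (439 against 238 CPM), Cldn8 (863 against 355 CPM), Tfcp2l1 (647 against 376 CPM) and Gata3 (288 against 150 CPM). Kcnj1 was at 1087 CPM in principal, 1362 CPM in distal convoluted tubule and 890 CPM in connecting tubule cells. Atp1b1 was at 9063 CPM in distal convoluted tubule and 7313 CPM in connecting tubule cells. Scnn1a, Vdr and Emx1 were higher in connecting tubule than in principal cells. All of these groups were chosen on measured genes and no test was run between them.

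The near-identical Klk1b genes lie beside Klk1 on chromosome 7, and counting could have split reads among them, so their levels are uncertain. Klk1b5 had 46 UMIs in connecting tubule cells of outer medulla (2764 CPM), 424 in cortex (4697 CPM), 70 in whole kidney 1 (1173 CPM) and 69 in whole kidney 2 (949 CPM). Per 100 Klk1 UMIs this was 2.86, 4.33, 1.22 and 1.15, so both dissected regions stood above both whole kidney libraries. Cells outside the rule likewise had more in both dissected regions, with 2.48, 3.59, 0.992 and 1.37 Klk1b5 UMIs per 100 Klk1 UMIs in outer medulla, cortex, whole kidney 1 and whole kidney 2. The 13 Klk1b genes together came to 5.29 per 100 Klk1 UMIs in outer medulla, 7.74 in cortex, 3.18 in whole kidney 1 and 3.21 in whole kidney 2. Klk1b1, Klk1b3, Klk1b4, Klk1b8, Klk1b9 and Klk1b21, at 120 to 676 CPM, were also among the genes with the largest ratios against other cells in every library.

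In connecting tubule cells of outer medulla (31 cells, 16641 UMIs) and of cortex (144 cells, 90278 UMIs), levels of several genes were close without TMM factors and lower in outer medulla with them. Slc8a1 had a ratio of outer medulla over cortex of 0.995 (0.664 to 1.45), and Clu, Defb1, Hsd11b2, Kcnj1 and Wnk1 had intervals that included equality. With the TMM shift of -0.63 between these libraries on the log2 scale, the ratio was 0.642 (0.429 to 0.934) for Slc8a1, 0.636 (0.494 to 0.809) for Clu and 0.542 (0.329 to 0.853) for Wnk1, and of these genes Kcnj1 alone had an interval that included equality. The 2 scalings thus differ on whether these genes were lower in outer medulla. Of the genes that chose the cells, Klk1 stood at 96569 against 108365 CPM and S100g at 54624 against 64789 CPM. Calb1 was at 11297 CPM in outer medulla and 7410 CPM in cortex, a ratio of 1.52 (1.29 to 1.79), or 0.61 on the log2 scale. With the TMM shift its ratio was 0.983 (0.832 to 1.16), an interval that included equality. Klk1b5, at 2764 against 4697 CPM, had a ratio of 0.589 (0.424 to 0.799).

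Vdr was among the few genes past a fixed size toward outer medulla, with 18 UMIs (1082 CPM) in outer medulla and 39 UMIs (432 CPM) in cortex, a ratio of 2.50 (1.35 to 4.48), or 1.62 (0.870 to 2.89) with the TMM shift. Whole kidney 2 over whole kidney 1, the difference between libraries of the same kind, was 0.69 for Vdr on the log2 scale, against 1.30 for outer medulla over cortex. Bag1, a co-chaperone gene, had 26 UMIs (1562 CPM) in outer medulla and 54 UMIs (598 CPM) in cortex, with 0.77 between the whole kidney libraries against 1.37. Toward cortex, the respiratory chain gene Cox5b had 12 UMIs (721 CPM) in outer medulla and 172 UMIs (1905 CPM) in cortex, and 0.05 between the whole kidney libraries against -1.39. The respiratory genes Ndufa5, Uqcr10 and Uqcrq lay on the same side, and the 24 oxidative phosphorylation genes listed had a median log2 ratio of 0.02.

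With a size of at least 1 on the log2 scale, 100 CPM and 15 UMIs in the higher library, 5 of 646 genes were higher (0.774%) and 173 lower (26.8%) in outer medulla. This rule asks more of the outer medulla cells at their lower depth: 15 UMIs are 901 CPM in the outer medulla cells but 166 CPM in the cortex cells, and 29 of the 173 had 0 UMIs and 82 had 1 UMI in outer medulla. With 901 CPM asked of the higher library in both directions, a choice made after seeing the data, 5 of 137 genes were higher (3.65%), among them Bag1, Vdr, Tax1bp1 and Prdx2, and 6 lower (4.38%), namely Ndufa5, Cox5b, Rpl41, Pdzk1ip1, Uqcr10 and Uqcrq. The same floor between whole kidney 2 and whole kidney 1 gave 1 higher and 1 lower of 138 genes. TMM factors left 0 genes higher and 391 lower at 15 UMIs. By the ranking used for naming, the lower side was led by genes with 0 UMIs in outer medulla, such as Hagh, with 0 against 47 UMIs, and Cldn7, with 0 against 19 UMIs.

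**Figure D3:**
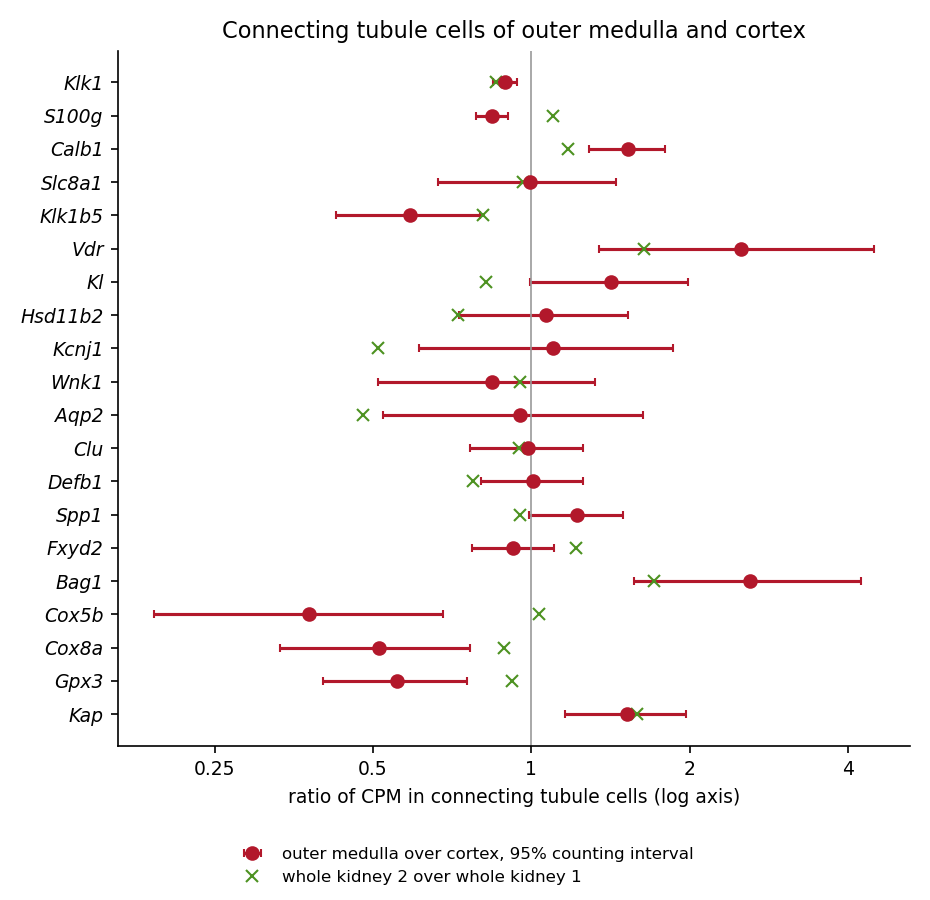
Ratio of CPM in connecting tubule cells of outer medulla over cortex (points with exact 95% counting intervals, log axis) and of whole kidney 2 over whole kidney 1 (crosses). On this scale, without TMM factors, Slc8a1, Clu and Defb1 sit near 1, Vdr, Bag1 and Calb1 lie to the right and Cox5b, Cox8a and Klk1b5 to the left, while Kap is shifted to the right in both comparisons by about the same amount. With the TMM shift, the intervals of Vdr, Calb1 and Kap for outer medulla over cortex include equality, and that of Bag1 runs from 1.01 to 2.74.

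Connecting tubule cells differed among themselves in how far Klk1 outweighed S100g and Calb1. The median of the Klk1 part of these UMIs was 56.0% in outer medulla, 58.5% in cortex, 54.9% in whole kidney 1 and 49.4% in whole kidney 2, and cells ranged from 0% to 100% in each. Cells above and at or below their library's median (Klk1-rich and Klk1-poor) were summed per library, and the 8 sums were compared with edgeR's quasi-likelihood test with library as a block. The genes of the rule were left out. The split used genes of the rule, and cells low in Klk1 had to meet the rule through S100g and Calb1 and the reverse, so the p-values hold for cells so chosen. Of 729 genes, 11 were higher (1.51%) and 6 lower (0.823%) in Klk1-rich cells at a Benjamini-Hochberg adjusted p under 0.05, and 70 genes had an unadjusted p under 0.05. These counts include Atp6v1g3, Fxyd4 and Aqp2, whose sides the choice of cells favoured, and Klk1b genes, which are not independent of the split. They are thus not counts of genes that differ apart from the choice of cells.

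Atp6v1g3, a proton pump subunit gene of intercalated cells, showed the greatest difference. It had 3 UMIs in Klk1-rich against 0 in Klk1-poor cells of outer medulla, 27 against 1 in cortex, 19 against 0 in whole kidney 1 and 60 against 1 in whole kidney 2. It was higher in 4 of 4 libraries and is given without a p, since it came mostly from 14 cells with little S100g and Calb1, which could meet the rule through Klk1 and so fell on the Klk1-rich side by the choice of cells. Another proton pump gene, Atp6v0b, was also higher (1.14, SE 0.32, edgeR adjusted p = 0.0209), as were Clu, Itm2b, Atp1b1 and Cst3, a secreted protease inhibitor gene whose level in outer medulla alone was lower in Klk1-rich cells. Without those 14 cells, Atp6v0b (edgeR adjusted p = 0.124) and Itm2b (edgeR adjusted p = 0.104) did not pass. Atp6v0b was called in 6 of 16 alternative settings. Klk1b5 differed by 1.61 on the log2 scale (SE 0.20), and Klk1b1, Klk1b3, Klk1b4 and Klk1b8 were higher too. Since the split itself was on Klk1, the Klk1b values are not independent of it: Klk1b5 came to 2.81 UMIs per 100 Klk1 UMIs in Klk1-rich and 2.96 in Klk1-poor cells of outer medulla, to 4.41 and 4.09 in cortex, to 1.16 and 1.54 in whole kidney 1, and to 1.23 and 0.780 in whole kidney 2.

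The genes lower in Klk1-rich cells were of another kind. Sfrp1, a secreted antagonist of Wnt signals, had 6 UMIs in Klk1-rich against 12 in Klk1-poor cells of outer medulla, 15 against 37 in cortex, 17 against 45 in whole kidney 1 and 30 against 67 in whole kidney 2, a log2 difference of -1.55 (SE 0.23, edgeR adjusted p = 1.09e-08). Klk1 was 45.4% of the Klk1, S100g and Calb1 UMIs of cells with at least 2 Sfrp1 UMIs. It was 60.7% in cells with under 2 UMIs each of Sfrp1, Aqp2 and Atp6v1g3. This p holds only for cells so chosen, and the part of the choice of cells in the Sfrp1 difference was not tested. Fxyd4, a pump regulator of the collecting duct, had 0 against 3, 3 against 11, 0 against 18 and 0 against 12 UMIs (-3.96, SE 0.69, a fitted value that depends on the prior count). Aqp2, the vasopressin-regulated water channel gene, had 3 against 13, 49 against 42, 36 against 74 and 17 against 47 UMIs, a log2 difference of -1.08 (SE 0.21), and cortex differed from the other libraries in showing no deficit. Fxyd4 and Aqp2 are given without a p. Cells without Klk1 could meet the rule only through S100g and Calb1 and so fell on the Klk1-poor side. Of these 20 cells, 13 had at least 2 UMIs of Aqp2 and 8 had a UMI of Fxyd4. Ppp1r1a, a phosphatase inhibitor gene, Fabp3, a fatty acid-binding protein gene, and Tceal9 were also lower. Slc8a1 did not pass, at 0.53 (SE 0.18, edgeR adjusted p = 0.0999).

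Klk1-rich cells were deeper, with medians of 525 against 399 UMIs in outer medulla, 509.5 against 442 in cortex, 585.5 against 370.5 in whole kidney 1 and 527 against 390 in whole kidney 2. The part of depth in these differences was not tested. The count of 17 genes was 9 without whole kidney 1, 8 without whole kidney 2, 5 without the library block and 5 with DESeq2, 3 for cells at a marker share of 10% and 1 for cells with at least 500 genes. Every alternative setting also split the cells on genes of the rule. Sfrp1 was called in 15 of 16 alternative settings. Fxyd4 was called in all 13 that tested it. It was not tested at a marker share of 10%, with at least 500 genes or without the library block. Aqp2 was called in 10 of 16 and turned sign in 1, the marker share of 10%, with a log2 difference of 0.60.

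**Figure D4:**
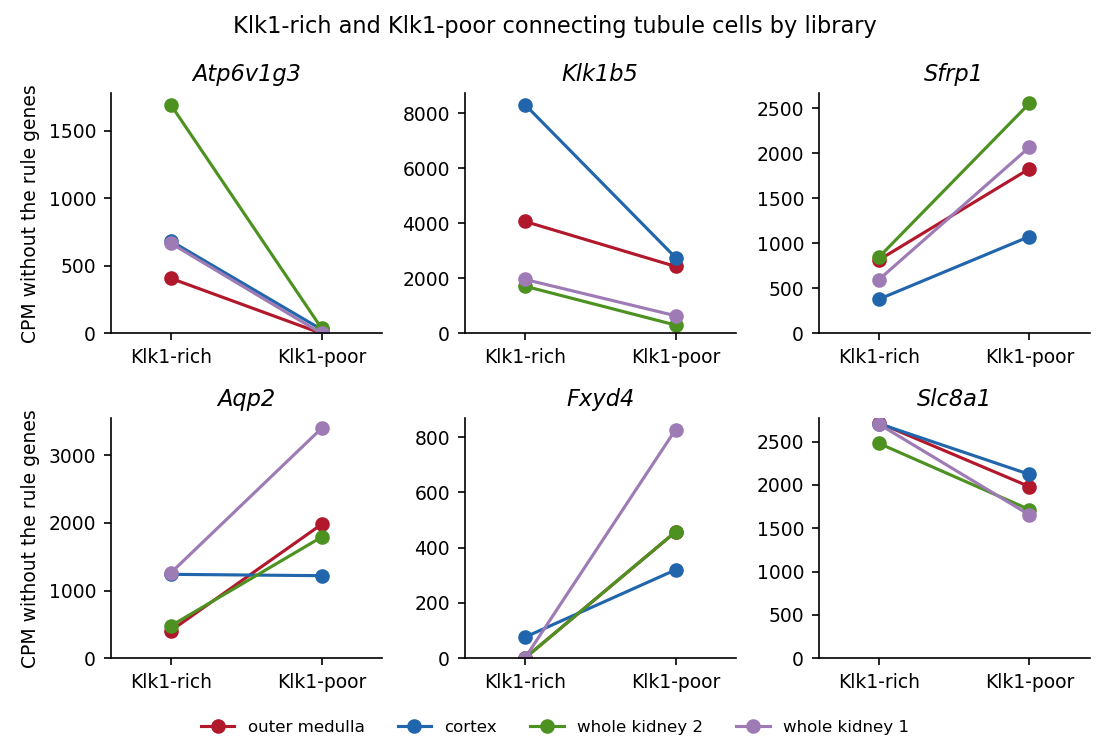
Summed levels (vertical axis, CPM over all genes but those of the rule) in Klk1-rich and Klk1-poor connecting tubule cells, with a line for each library. Atp6v1g3 and Klk1b5 are higher and Sfrp1 and Fxyd4 lower in Klk1-rich cells of all 4 libraries, Aqp2 is lower in 3 of the 4, and Slc8a1 did not pass the test.

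The Atp6v1g3 UMIs came from few cells. Those with at least 2 numbered 14 of 413, with 1 in outer medulla, 4 in cortex, 3 in whole kidney 1 and 6 in whole kidney 2, and held 107 of the 111 Atp6v1g3 UMIs. They met the rule on Klk1: it made up 93.9% of their Klk1, S100g and Calb1 UMIs, against 58.0% in the other 399 cells, and 9 of the 14 had at most 1 UMI of S100g. Slc26a4, which encodes pendrin, the bicarbonate exchanger of non-alpha intercalated cells, had a UMI in 10 of them and stood at 2103 CPM, against 21.8 CPM in the other 399. Slc8a1 stood at 400.5 CPM (4 UMIs) against 1984 CPM, and Aqp2 had 1 UMI. In these 14 cells the intercalated markers thus outweighed Slc8a1, S100g and Calb1, which goes against their label: they held 107 UMIs of Atp6v1g3, 41 of S100g, 7 of Calb1 and 4 of Slc8a1. Without them, 15 genes passed the comparison of Klk1-rich and Klk1-poor cells, and 12 of these had also passed with them. Atp6v0b, Itm2b, Fabp3 and Tceal9 no longer passed, and Atp6v1g3 was not tested. Outside the rule, 238 cells had at least 2 Atp6v1g3 UMIs, 24 of these had at least 5 UMIs of Klk1, and Klk1 stood at 1487 to 4682 CPM in them, against 101 to 517 CPM in proximal tubule cells.

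At the other end, 20 cells had no UMI of Klk1 and met the rule on S100g and Calb1. Of these, 13 had at least 2 UMIs of Aqp2 (65.0%), against 48 of the other 393 (12.2%), and Slc8a1 stood at 1617 CPM in them against 1928 CPM. Their median depth was 362.5 UMIs against 467 UMIs.

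At 2 or more UMIs of each gene, Sfrp1 and Aqp2 marked separate connecting tubule cells. At least 2 UMIs of Sfrp1 were seen in 60 cells and at least 2 of Aqp2 in 61, and 0 cells had both. Some cells did hold both genes at lower counts: the Aqp2 set had 3 Sfrp1 UMIs and the Sfrp1 set 1 Aqp2 UMI. This grouping was made after the values were seen and is given without a test, and the overlap to be met without any link was not worked out. The sets had median depths of 493.5 UMIs (Sfrp1) and 539 UMIs (Aqp2). Slc8a1 showed no common direction between them. It stood at 2736 CPM in the Sfrp1 set and 3966 CPM in the Aqp2 set of outer medulla, 1051 and 1998 CPM in cortex, 1872 and 2255 CPM in whole kidney 1, and 2674 and 801 CPM in whole kidney 2. The ratio in whole kidney 2 was 3.34 (1.48 to 8.85), and the intervals of the other 3 libraries included equality. Pooled, the ratio was 1.10 (0.789 to 1.53), and 0.765 (0.494 to 1.16) without whole kidney 2. S100g differed little in size and in opposite directions, with ratios of 1.12 (1.01 to 1.25) in cortex and 0.887 (0.800 to 0.984) in whole kidney 2.

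Calb1, Wnk1 and Clu stood higher in the Sfrp1 set, while Wnk4, with 5 UMIs in the Sfrp1 set and 9 in the Aqp2 set, had an interval that included equality. Calb1 stood at 17442 CPM in the Sfrp1 set and 12558 CPM in the Aqp2 set of outer medulla, 12613 and 7871 CPM in cortex, 12170 and 7429 CPM in whole kidney 1, and 17962 and 6520 CPM in whole kidney 2, a pooled ratio of 1.99 (1.73 to 2.298). Wnk1 stood at 2677 against 980 CPM, a ratio of 2.73 (1.87 to 4.05), and Clu at 6190 against 2270 CPM. Slc12a3, which the rule kept under 3 UMIs a cell, had 24 UMIs in the Sfrp1 set and 2 in the Aqp2 set. Ppp1r1a had 70 against 8 UMIs and Fabp3 had 22 against 0.

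Hsd11b2 and Aqp3, both genes of principal cells, stood higher in the Aqp2 set. Hsd11b2 stood at 2052 CPM in the Sfrp1 set and 7931 CPM in the Aqp2 set of outer medulla, 131 and 3754 CPM in cortex, 416 and 4179 CPM in whole kidney 1, and 411 and 4232 CPM in whole kidney 2, a pooled ratio of 0.118 (0.0670 to 0.194). It was lower in the Sfrp1 set in each of the 4 libraries. Aqp3, a basolateral water channel gene, had 0 against 58 UMIs. The sodium channel genes Scnn1a, Scnn1b and Scnn1g, with 6 to 20 UMIs in each set, had intervals that included equality, and so had the transcription factor genes Hoxd8, Emx1, Tfcp2l1, Tfap2b and Gata3. Klk1 stood at 62156 against 83873 CPM, with outer medulla, at 74213 against 23133 CPM, opposite to the other 3 libraries. Kap, the proximal tubule gene, stood at 4318 CPM in the Sfrp1 set and 2557 CPM in the Aqp2 set, a direction set by whole kidney 1 (88 against 31 UMIs): without it the levels were 2468 and 2839 CPM. The part of free RNA in the differences between the sets was not tested.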

How the data were processed

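The deposited tables hold raw counts that the authors made from Drop-seq reads: UMIs of each gene symbol in each barcode, whole numbers throughout. The submitters' processing notes name the build mm9 and Seurat 2.3.1 without a role. No aligner, annotation or UMI correction is stated: these were not given in the sources used here. Per the labels' protocols, sequencing was on an Illumina NextSeq 500. The 5 libraries held 869732 to 4169677 UMIs. No mitochondrial gene was listed (0), and no doublet caller was run. Instead, an alternative left out the 5% of connecting tubule cells with the most UMIs.

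UMIs were summed per library and cell group, scaled to CPM, and compared as log2 ratios with a pseudocount of 10 CPM, which understates changes of low genes. Ratios of sums carry exact conditional intervals and shares Clopper-Pearson intervals. UMI sums of Klk1-rich and Klk1-poor cells were tested with edgeR 4.0.16 (glmQLFit, TMM, filterByExpr, library as a block, since both sums of a pair come from the same library), with DESeq2 1.42.0 as an alternative. The test was tried on simulated data. The labels do not say whether libraries are separate animals, so p-values measure the spread between these libraries only. The cells and the gene lists were chosen with earlier results of these data known.

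Genes were named by rule: the 15 highest and 8 lowest by their least extreme ratio over 4 libraries, up to 10 in each direction past the size between outer medulla and cortex, up to 10 in each direction by p in the Klk1 comparison, and members of the lists. Distal convoluted tubule cells needed at least 5 UMIs and 1% of UMIs from Slc12a3 and Pvalb, principal cells at least 5 UMIs and 2% from Aqp2 and Fxyd4, and proximal tubule cells at least 3 UMIs of 6 proximal tubule genes. Values of some genes are not reported here.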

Additional observations from a re-analysis of the deposited data

How the results depend on the processing

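The share of connecting tubule cells in cortex, 4.69%, was 5.66% at a marker share of 3%, 3.45% at 10% and 2.71% among cells with at least 500 genes. The share in outer medulla stayed within its counting interval in the 4 alternatives tried. Genes higher than in other cells numbered 62 with TMM factors and 31 at 500 CPM, and lower 422 and 80, with 134 to 149 higher and 290 to 312 lower when a library was left out. For outer medulla over cortex, 3 genes were higher at a marker share of 3%, with at least 500 genes and without the 5% deepest cells, 0 with TMM factors and 802 with no UMI minimum. Lower were 74 with at least 500 genes, 391 with TMM factors, 25 at 500 CPM, 351 with no UMI minimum and 6 at the common floor. The 17 genes of the Klk1 comparison were 3 at a marker share of 10%, 1 with at least 500 genes, 5 with DESeq2 and 5 without the replicate block by library, and 8 to 20 when a library was left out. Of the alternatives, those at 10% and at 500 genes also test fewer cells. Without the 14 cells with at least 2 UMIs of Atp6v1g3, an alternative added after seeing the data, 15 genes passed, 12 of them among the 17. At 31 cells, outer medulla limits every regional comparison to genes near or above 901 CPM.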

Other observations

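The ratio of Klk1b5 to Klk1 followed the library more than the cell: 2.86 per 100 Klk1 UMIs in connecting tubule cells and 2.48 in other cells of outer medulla, 4.33 and 3.59 in cortex, 1.22 and 0.992 in whole kidney 1, and 1.15 and 1.37 in whole kidney 2. Kap, a proximal tubule gene, stood at 4507 CPM in connecting tubule cells of outer medulla and 2969 CPM in those of cortex, and at 53563 and 38916 CPM in the other cells of these libraries. Among barcodes with 100 to 199 genes, which were not counted as cells, 55 in outer medulla, 134 in cortex, 139 in whole kidney 1 and 156 in whole kidney 2 met the rest of the rule.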
